A study of Mus musculus with 4 samples.

Results

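The circadian clock genes described here were the 10 genes Arntl, Clock, Per1, Per2, Per3, Cry1, Cry2, Nr1d1, Nr1d2 and Dbp, taken by symbol from count tables of 25239 genes in mouse embryonic stem cells. All 10 symbols were found, and all 10 passed the filter on low counts that left 14525 genes for testing. The cells carried Ogt alleles flanked by loxP sites (Ogt fl/fl) in both groups. The product of Ogt, O-GlcNAc transferase, attaches N-acetylglucosamine to serine and threonine residues of nuclear and cytosolic proteins. The induced knockout (Ogt iKO) group was 2 libraries of polyadenylated RNA from cells kept for 6 days with 4-hydroxytamoxifen (4-OHT), and the control group was 2 libraries from Ogt fl/fl cells kept without it. Both groups grew on fibroblast feeders treated with mitomycin C, in medium with LIF and serum replacement, and were sorted before RNA extraction. The labels describe selection for a yellow fluorescent protein in the treated cultures alone, and no group that received 4-OHT with Ogt intact, so the loss of Ogt, the ligand and that selection cannot be told apart. The labels do not say whether the 2 libraries of a group came from separate cultures, so p-values measure the spread between these libraries, which may be technical.

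The mammalian clock is a transcriptional feedback loop. CLOCK and BMAL1, the product of Arntl, bind E-box sequences as a pair and activate the Per and Cry genes, whose products return to the nucleus and repress that pair. In an adjoining loop the REV-ERB receptors, encoded by Nr1d1 and Nr1d2, repress Arntl, while ROR receptors activate it, and Dbp is an output gene whose product binds D-box sequences. BMAL1, CLOCK and PER2 are known to carry O-GlcNAc. Embryonic stem cells are known to express clock genes without the daily rhythm that appears once they differentiate. The time of day at which cells were collected is not given in the sources used here, and each group was sampled at a single time.

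Library totals ran from 14668489 to 16504204 counts, and levels are given in CPM, counts per 1000000 scaled by trimmed means (TMM). A count of 0 leaves room for 3 counts, which is 0.175 to 0.196 CPM. With no molecular identifiers in the reads, that floor covers counting error alone, while the 95% intervals of fold changes below also include the spread between libraries. Ogt counts were 437 and 389 in the knockout and 2963 and 3108 in control (replicates 1 and 2 of each), as the labels have it. Stem cell markers were present in every library: Pou5f1 lay between 489 and 894 CPM and Epcam, which encodes CD326, between 280 and 347 CPM. Summed over 9 such markers, the level was 2352 and 2673 CPM in Ogt iKO and 4313 and 4301 CPM in control, and 8 of the 9 were called lower, beside 32.0% of all genes. Markers of feeder fibroblasts were not at 0 in any library. The summed level of 16 of them was 2968 CPM in Ogt iKO replicate 1, against 869 CPM in Ogt iKO replicate 2 and 1104 and 1230 CPM in the controls, and 15 of the 16 were highest in Ogt iKO replicate 1. Their part in the results below was not tested, and fits without that library are given where they change a call. The markers did not move together: Tagln (257 and 222 CPM in Ogt iKO, 44.2 and 34.9 in control), Acta2 and Pdgfrb were called higher in Ogt iKO, and the other 13 did not pass the threshold. Their direction rested on the knockout library used: without Ogt iKO replicate 1, 3 of the 16 were higher and 12 lower, and without Ogt iKO replicate 2, 15 were higher (edgeR). The labels name CD90.2 as the sort marker that picks out the stem cells and CD326 as the one that removes feeders, whereas CD326 usually marks stem cells and CD90.2 fibroblasts. Thy1, which encodes CD90, had 25.6 and 8.90 CPM in Ogt iKO and 15.6 and 15.6 CPM in control. In such bulk libraries, fewer cells with a transcript and less of it per cell cannot be told apart.

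Clock genes did not move as a block. Clock, Arntl, Per2 and Nr1d2 rose in Ogt iKO, Cry1, Cry2 and Nr1d1 fell, and Per1, Per3 and Dbp did not pass the threshold, an adjusted p under 0.05 (quasi-likelihood test of edgeR, Benjamini-Hochberg over all genes tested). These 7 calls of 10 stand beside 65.3% of all genes called in the same fit (33.2% higher and 32.0% lower), so the share of clock genes called was close to the background. DESeq2 called 4 of the 10 beside 47.6% of all genes, and edgeR's glmTreat, which asks for more than a 1.2-fold change, called 4 beside 47.9%: Clock, Per2, Cry1 and Nr1d1 in each case. Without control replicate 2, edgeR called 3 higher and 1 lower, Cry1, beside 53.3% of all genes. For 9 of the 10, all but Dbp, the libraries of the groups did not overlap, which was so for 83.2% of all genes. The median log2 fold change was 0.038 over the 10 genes and 0.024 over all genes tested. What set the members apart from each other was the direction and size: Cry1 fell to 44.5% of its control level while Per2 rose to 201%. In this fit those 2 were called with a change of at least 2-fold, which 21.0% of all genes reached. The 2-fold line was close for Per2 (1.01 on the log2 scale, 0.98 in DESeq2 and 0.84 without control replicate 2), and for Cry1 with libraries scaled by totals (-0.997). Nr1d1 passed it without control replicate 1 (-1.11) or Ogt iKO replicate 1 (-1.04).

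**Figure D1:**
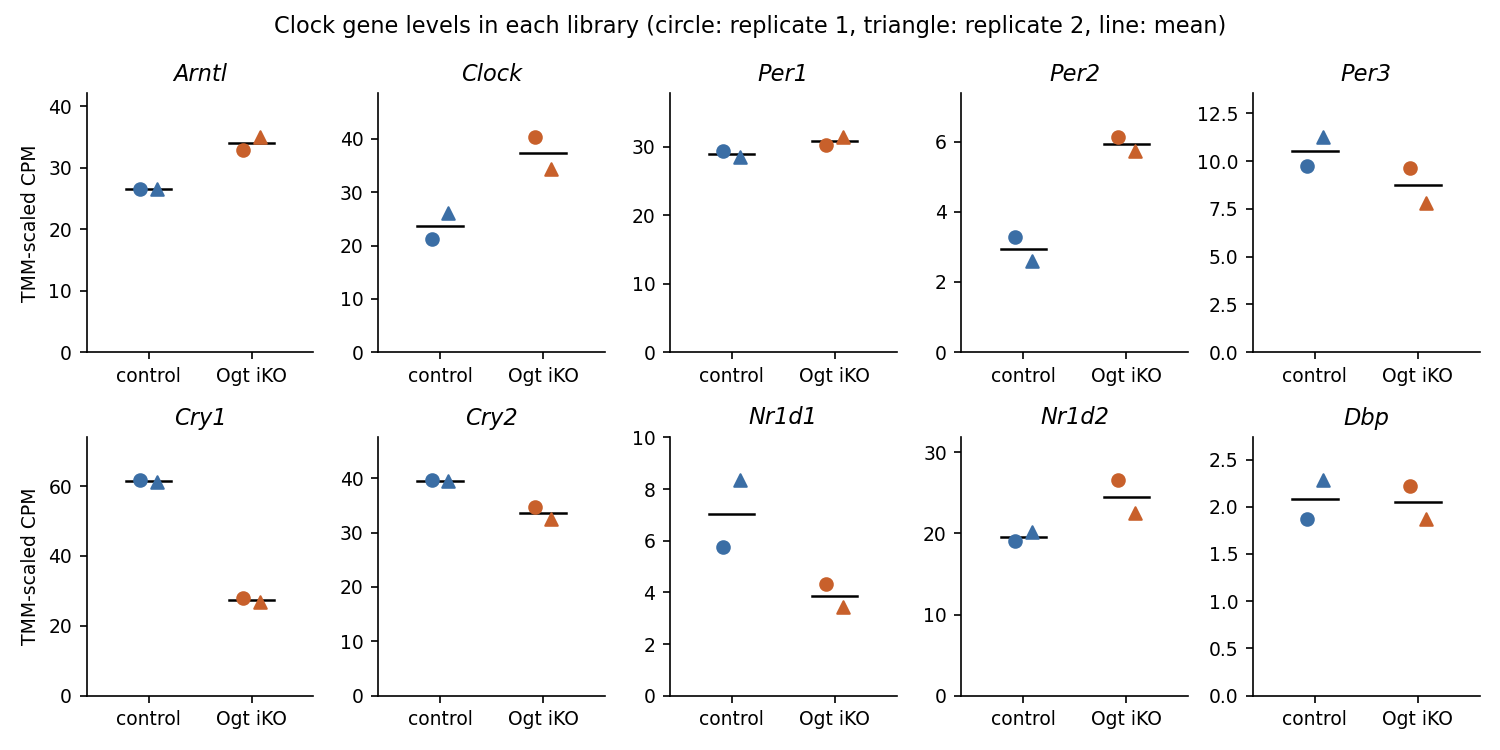
Level of each of the 10 clock genes in each library, as TMM-scaled CPM on axes that start at 0, with circles for replicate 1, triangles for replicate 2 and a line at the mean of the 2 libraries of a group. Cry1 drops from about 61.5 to 27.4 CPM with little spread, Per2 and Clock lie higher in both Ogt iKO libraries, and the groups of Dbp overlap.

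Both genes of the activating pair were higher in Ogt iKO. Clock, which encodes the basic helix-loop-helix PAS partner of BMAL1, lies on chromosome 5 from 76209868 to 76305603 (GRCm38). It had 691 and 533 counts in Ogt iKO and 327 and 399 in control. Each knockout library was thus above each control. Scaled, its level was 37.4 CPM ± 4.28 (SD, n = 2) against 23.6 CPM ± 3.45 (SD, n = 2), a log2 fold change of 0.67 (SE 0.122, edgeR adjusted p 0.00144). With each library left out in turn the value ran from 0.52 to 0.81 and kept its call.

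Arntl, on chromosome 7 from 113178471 to 113314126, encodes BMAL1, the partner with which CLOCK drives transcription. It had 563 and 544 counts in Ogt iKO and 410 and 408 in control. The controls were nearly the same and both knockout libraries lay above them. Its control level was 26.6 CPM ± 0.0768 (SD, n = 2). With 34.0 CPM ± 1.51 (SD, n = 2) after 4-OHT it had a log2 fold change of 0.36 (SE 0.0840, edgeR adjusted p 0.00546). The rise was 28.1% of the control level, and DESeq2 did not call it (adjusted p 0.0631).

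Of the 3 period genes, which encode the repressor proteins that carry CRY into the nucleus, Per2 was called and Per1 and Per3 were not. Per2, on chromosome 1 from 91415977 to 91459351, had 105 and 89 counts in Ogt iKO and 51 and 40 in control. Both knockout libraries were above both controls at a low level throughout. The scaled level was 5.94 CPM ± 0.286 (SD, n = 2) against 2.95 CPM ± 0.486 (SD, n = 2), a log2 fold change of 1.01 (SE 0.212, edgeR adjusted p 0.00301), and it kept its call without any 1 of the 4 libraries (0.84 to 1.18).

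Per1, on chromosome 11 from 69095108 to 69109965, is known to respond quickly to signals that reset the clock. It was the most abundant Per gene per length and had 518 and 488 counts in Ogt iKO and 454 and 437 in control. The libraries of the groups did not overlap, but the distance was small: 30.9 CPM ± 0.822 (SD, n = 2) against 28.9 CPM ± 0.597 (SD, n = 2). Its log2 fold change of 0.095 had a 95% interval from -0.095 to 0.28 and did not pass the threshold (edgeR adjusted p 0.340). The call depended on the scaling. With libraries scaled by their totals alone, which shifted the median over all genes from 0.024 to 0.19 on the log2 scale, Per1 had a log2 fold change of 0.26 and passed it (edgeR adjusted p 0.0201).

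Per3, on chromosome 4 from 150997018 to 151044707, is the period gene that the loop can do without. Its counts were 165 and 121 in Ogt iKO and 151 and 173 in control. After scaling, Ogt iKO replicate 1 (9.65 CPM) lay just under control replicate 1 (9.76 CPM). The log2 fold change was -0.27, with a 95% interval from -0.66 to 0.13 (edgeR adjusted p 0.203). It was -0.42 without Ogt iKO replicate 1, -0.15 without Ogt iKO replicate 2 and -0.098 with libraries scaled by totals, and was not called in any of these.

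The cryptochromes, the main repressors of CLOCK and BMAL1, both fell, and Cry1 by far the more. Cry1, on chromosome 10 from 85131700 to 85185054, had 480 and 414 counts in Ogt iKO and 955 and 940 in control. Its 2 controls agreed closely, and the knockout libraries had 28.1 and 26.7 CPM. The mean control level was 61.5 CPM ± 0.298 (SD, n = 2). It was 27.4 CPM ± 0.980 (SD, n = 2) after 4-OHT, a log2 fold change of -1.17 (SE 0.0786, edgeR adjusted p 7.228e-06). This was the largest change among the 10 genes with TMM scaling of all 4 libraries, and it ran from -1.20 to -1.16 with each left out. The rise of Per2 was larger in size without control replicate 1 (1.18 against -1.17) and with libraries scaled by totals (1.18 against -0.997).

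Cry2, on chromosome 2 from 92403646 to 92434085, had 595 and 504 counts in Ogt iKO and 614 and 606 in control. Scaled to 33.6 CPM ± 1.63 (SD, n = 2) against 39.6 CPM ± 0.116 (SD, n = 2), both knockout libraries lay below both controls. The log2 fold change was -0.23 (SE 0.0808, edgeR adjusted p 0.0309), a fall to 85.0% of control. That call is fragile. It was lost in DESeq2 (adjusted p 0.116), with libraries scaled by totals (log2 fold change -0.065, edgeR adjusted p 0.497) or by upper quartiles (edgeR adjusted p 0.0626), and in 3 of the 4 fits that left out a library: Ogt iKO replicate 2 (0.0858), control replicate 1 (0.0954) or control replicate 2 (0.0807).

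The REV-ERB receptors, which bind haem and recruit the NCoR and HDAC3 corepressor, were called in opposite directions. Nr1d1, on chromosome 11 from 98767932 to 98775377, had 74 and 53 counts in Ogt iKO and 89 and 128 in control. Control replicate 2 stood highest. The level was 3.87 CPM ± 0.645 (SD, n = 2) against 7.05 CPM ± 1.83 (SD, n = 2), a log2 fold change of -0.86 (SE 0.240, edgeR adjusted p 0.0124). Without control replicate 2 the log2 fold change was -0.58 and the call was lost (edgeR adjusted p 0.107). Nr1d1 overlaps Thra, which encodes a thyroid hormone receptor, on the opposite strand: 8.55% of the exon length of Nr1d1 is shared with exons of Thra. Thra also fell, with 160 and 134 counts against 179 and 229 (log2 fold change -0.56, edgeR adjusted p 0.0173). With each library left out in turn the Thra value ran from -0.74 to -0.37. Since the strand counted is not given in the sources used here, reads of Nr1d1 and Thra may be mixed.

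Nr1d2, on chromosome 14 from 18204056 to 18239106, had 454 and 349 counts in Ogt iKO and 294 and 310 in control. Per base of exon it was more abundant than Nr1d1 in every library, and its 2 knockout libraries lay above the controls, Ogt iKO replicate 1 the further. The level was 24.5 CPM ± 2.87 (SD, n = 2) against 19.6 CPM ± 0.859 (SD, n = 2), a log2 fold change of 0.32 (SE 0.114, edgeR adjusted p 0.0333). The call was lost in DESeq2 (adjusted p 0.170), without Ogt iKO replicate 1 (log2 fold change 0.20, edgeR adjusted p 0.186), without control replicate 1 (0.27, edgeR adjusted p 0.159) and without control replicate 2 (0.36, edgeR adjusted p 0.0746). Ogt iKO replicate 1 is the library with the most fibroblast marker RNA.

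Dbp, on chromosome 7 from 45705100 to 45710203, encodes a PAR bZIP transcription factor and is among the strongest cycling transcripts of tissues with a running clock. In these cells it was at a low level, with 38 and 29 counts in Ogt iKO and 29 and 35 in control. The 2 groups overlapped, at 2.05 CPM ± 0.250 (SD, n = 2) and 2.08 CPM ± 0.289 (SD, n = 2). The log2 fold change of -0.019 had a 95% interval from -0.63 to 0.60 (edgeR adjusted p 0.957), and its sign turned with the scaling. Of its exon length, 18% is shared with Sphk2 on the opposite strand, which had 646 and 654 counts against 764 and 748.

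**Figure D2:**
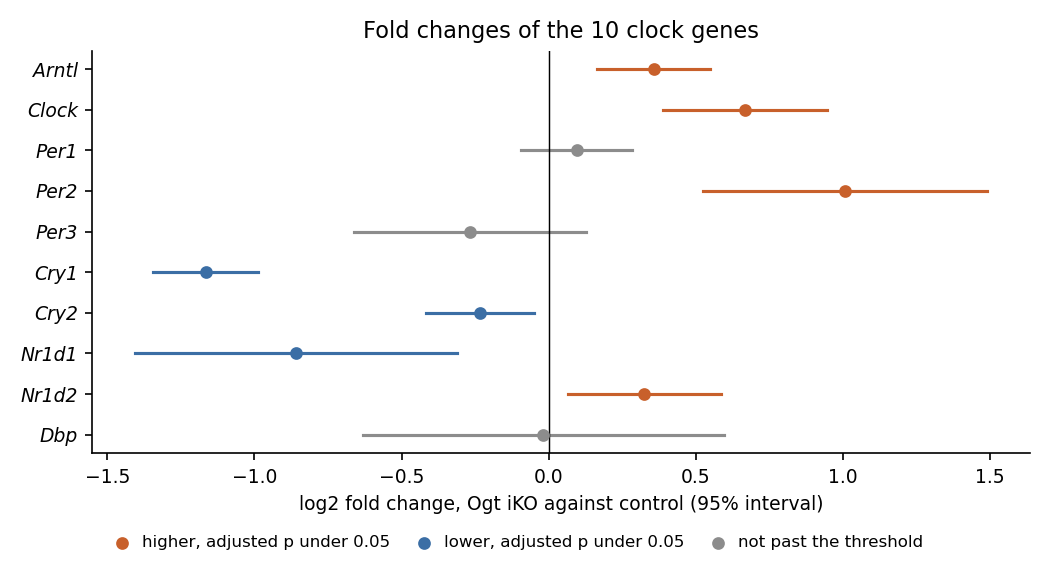
Log2 fold change of each clock gene in Ogt iKO against control from edgeR's quasi-likelihood fit, with its 95% interval as a line. Points right of 0 are higher in Ogt iKO; orange and blue mark calls at an adjusted p under 0.05, and grey marks Per1, Per3 and Dbp, whose intervals cross 0.

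The order of the clock genes by level was set per length, as TMM-scaled CPM per 1000 bases of merged exon. In control Cry1 led by a wide margin, at 18.4 CPM per kb, followed by Cry2 (6.26), Per1 (5.13), Nr1d2 (3.62) and Arntl (3.53), of which Nr1d2 and Arntl did not differ beyond their ranges. Nr1d1 (2.29) and Clock (1.72) came next with overlapping ranges, and Per3 (1.10), Dbp (0.694) and Per2 (0.504) were lowest. In Ogt iKO the order was flatter: Cry1 remained at the top at 8.20 CPM per kb, above Per1 (5.48) and Cry2 (5.32), whose ranges overlapped. Nr1d2 (4.54) and Arntl (4.52) again overlapped, Clock (2.72) was now above Nr1d1 (1.26), and Per2 (1.01) overlapped Per3 (0.908) and was above Dbp (0.684). Per length of the longest annotated transcript, Cry1 was again the most abundant in both groups, Per2 was the lowest in both, and Arntl was in place 3 in control and place 2 in Ogt iKO. The order of the middle genes therefore depends on the gene model, and so does that of the lowest genes in Ogt iKO, where Per2 went from place 8 to place 10.

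Related genes were compared within each library, where the scaling between libraries cancels. Cry1 had 2.94 and 2.94 times as many counts per base of exon as Cry2 in the control libraries, and 1.53 and 1.55 times as many in Ogt iKO, a difference of -0.93 in the log2 ratio. The REV-ERB ratio moved in the same sense: Nr1d1 to Nr1d2 was 0.532 and 0.726 in control and 0.287 and 0.267 in Ogt iKO, a log2 difference of -1.17. Per2 to Per1 went the other way, from 0.108 and 0.0880 in control to 0.195 and 0.175 in Ogt iKO (log2 difference 0.92). Per3 to Per1 was 0.195 and 0.232 in control and 0.187 and 0.145 in Ogt iKO (log2 difference -0.37). Arntl2 to Arntl was 0.397 and 0.217 in control and 0.538 and 0.491 in Ogt iKO (log2 difference 0.81, or 0.37 without control replicate 2). For each of these pairs the libraries of the groups did not overlap, so that 4 of 4 pairs of a knockout and a control library moved in 1 direction. Among single genes, 83.2% of all tested did not overlap, and no such share was computed for ratios. In each of the 5 ratios compared, the exact permutation test (two-sided) gave p 0.333, the smallest p that 2 libraries against 2 allow, so no ratio could pass the threshold, adjusted or not.

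**Figure D3:**
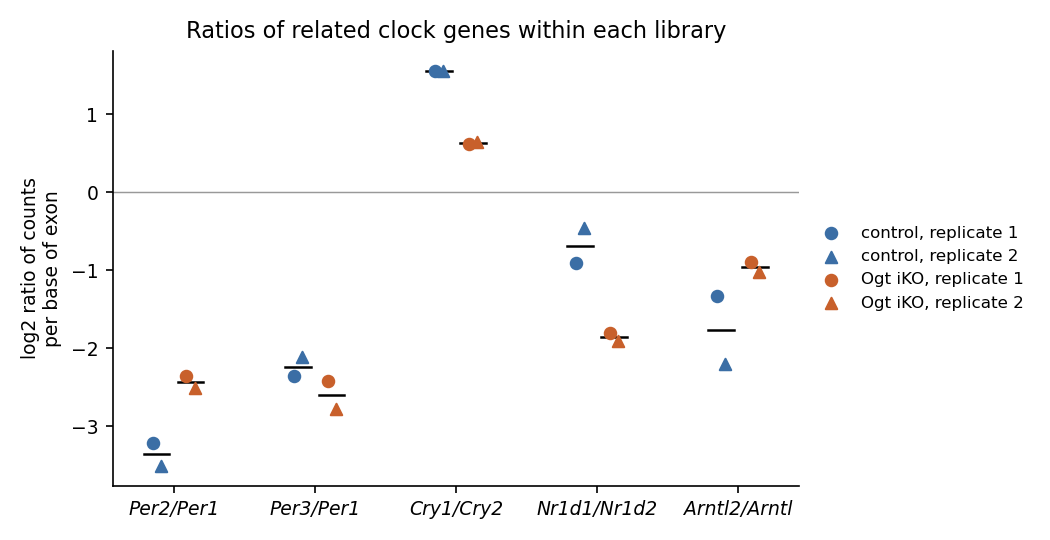
Log2 ratio of counts per base of merged exon between related clock genes within each library, control in blue and Ogt iKO in orange, with circles for replicate 1, triangles for replicate 2 and lines at group means. Cry1 over Cry2 falls from 1.56 to 0.62 with hardly any spread, while the control libraries of Nr1d1 over Nr1d2 and Arntl2 over Arntl lie well apart.

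Promoter sequences were examined because E-boxes, D-boxes and ROR elements are the sites through which these genes act on one another, and members that hold the same site can be set beside each other. RefSeq (GRCm38.p6) gave 13 windows for 9 of the 10 genes, each from 250 bases before to 50 bases after a transcript start, with none for Per2. The motifs searched on both strands were the E-box CACGTG, its variant CACGTT (E-prime box), the D-boxes TTATGTAA and TTACGTAA, the ROR elements TAGGTCA and TGGGTCA, and the cyclic AMP element TGACGTCA. No match overlapped another in these windows. The stretches that hold a match, with the motif in capitals, read 5′ to 3′ on the strand of the gene.
Cry1, chr10:85185079-85185163, minus strand, E-prime box (as AACGTG) and E-box: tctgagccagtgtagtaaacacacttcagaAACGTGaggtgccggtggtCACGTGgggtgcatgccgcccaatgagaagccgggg
Per1, chr11:69098753-69098818, plus strand, E-box: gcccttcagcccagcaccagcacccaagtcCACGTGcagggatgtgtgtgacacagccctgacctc
Cry2, chr2:92434200-92434265, minus strand, E-prime box (as AACGTG): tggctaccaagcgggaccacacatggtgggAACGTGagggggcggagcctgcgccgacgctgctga
Nr1d1, chr11:98775378-98775435, minus strand, E-prime box (as AACGTG): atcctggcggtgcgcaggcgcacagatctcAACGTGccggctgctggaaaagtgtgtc
Per3, chr4:151044786-151044900, minus strand, D-box in 2 places: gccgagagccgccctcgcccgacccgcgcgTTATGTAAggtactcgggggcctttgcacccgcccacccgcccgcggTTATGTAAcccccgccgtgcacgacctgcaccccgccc
Arntl, chr7:113207526-113207555, plus strand, ROR element: agggaaggcagaaagTAGGTCAgggacgga

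The E-box was in windows of 2 of the 9 genes, Cry1 and Per1, which is 2 of their 13 windows, and in 7.15% of all 32851 promoter windows. In Cry1 the E-box began 60 bases before the start and the E-prime box 79 bases before the start. In the window of Per1 that held it, the E-box began 166 bases before the start. The fold changes of these 2 E-box genes differed: Cry1 had a log2 fold change of -1.17 and Per1 of 0.095. The E-prime box was in the windows of Cry1, Cry2 and Nr1d1 (3 of the 13 windows, beside 4.68% of all windows), and these were the 3 clock genes called lower in Ogt iKO. That was seen after the values were known and rests on 3 genes, of which Cry2 and Nr1d1 lost their call in some of the fits above, and a match is a run of letters, not a bound site. Per2, called higher in Ogt iKO, had no window, so whether it holds the E-prime box was not checked. The D-box occurred at 2 places in the Per3 window, 205 and 158 bases before the start (1.06% of all windows hold it), and the ROR element in 1 of the 2 Arntl windows, 30 bases after the start (6.45% of all windows). The windows of Clock, Nr1d2 and Dbp held none of these letters, and the cyclic AMP element, in 1.79% of all windows, was in none of the 13.

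The other genes of the pathway were followed with a list of 38, of which 37 passed the filter. Of these, 11 were higher and 14 lower in Ogt iKO, against the same background of 65.3% of all genes called (33.2% higher and 32.0% lower), and their median log2 fold change was -0.085. Both paralogs of the activating pair rose. Arntl2, which encodes BMAL2, had 229 and 202 counts with 4-OHT and 123 and 67 without (log2 fold change 1.10, SE 0.246, edgeR adjusted p 0.00417), although its controls differed between themselves: the log2 fold change was 0.72 without control replicate 2 and 1.59 without control replicate 1, called in each. Npas2, which can stand in for CLOCK, had 13 and 11 counts against 0 and 5. It was called (log2 fold change 2.13, edgeR adjusted p 0.0383), but not in DESeq2 (adjusted p 0.192), with no filter (edgeR adjusted p 0.0692), against a fold of 1.2 (edgeR adjusted p 0.0531) or without control replicate 1 (1.15, edgeR adjusted p 0.201), and without control replicate 2 the remaining control had 0 counts.

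Some genes of the list encode receptors and bZIP factors that act on the ROR element and the D-box. Rora, which encodes the activator that competes with the REV-ERBs, rose from 40 and 40 counts in control to 127 and 97 in Ogt iKO (log2 fold change 1.40, SE 0.206, edgeR adjusted p 0.000432). Its paralog Rorb had at most 2 counts in any library and was not tested. Of the relatives of Dbp, Tef rose from 645 and 598 counts to 896 and 853 (log2 fold change 0.41, SE 0.0798, edgeR adjusted p 0.00194) and Hlf from 7 and 8 counts to 22 and 29, a rise that DESeq2 did not call (adjusted p 0.0798). Nfil3, the repressor that competes with them for the D-box, fell from 135 and 124 counts to 81 and 72 (log2 fold change -0.84, SE 0.172, edgeR adjusted p 0.00261). Of the 3 PAR bZIP genes, Dbp did not pass the threshold in this fit. Differences between their fold changes were not tested.

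Among 3 repressors that act at E-boxes, Bhlhe40 and Ciart fell and Bhlhe41 rose (32.0% of all genes fell and 33.2% rose). Bhlhe40 (DEC1) had 340 and 274 counts in the knockout and 535 and 676 in control (log2 fold change -1.06, SE 0.129, edgeR adjusted p 0.000142). Its paralog Bhlhe41 (DEC2) had 107 and 86 against 36 and 17 (1.78, SE 0.310, edgeR adjusted p 0.0011). The value for Bhlhe41 depended on the control used, at 2.40 without control replicate 1 and 1.33 without control replicate 2, and 19% of its exon length is shared with an antisense exon. Ciart, which encodes the repressor CHRONO, fell to 38.6% of control, with 33 and 44 counts against 93 and 97 (log2 fold change -1.38, SE 0.237, edgeR adjusted p 0.00103). Ciart was the largest fall in the list in the fit of all 4 libraries.

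**Figure D4:**
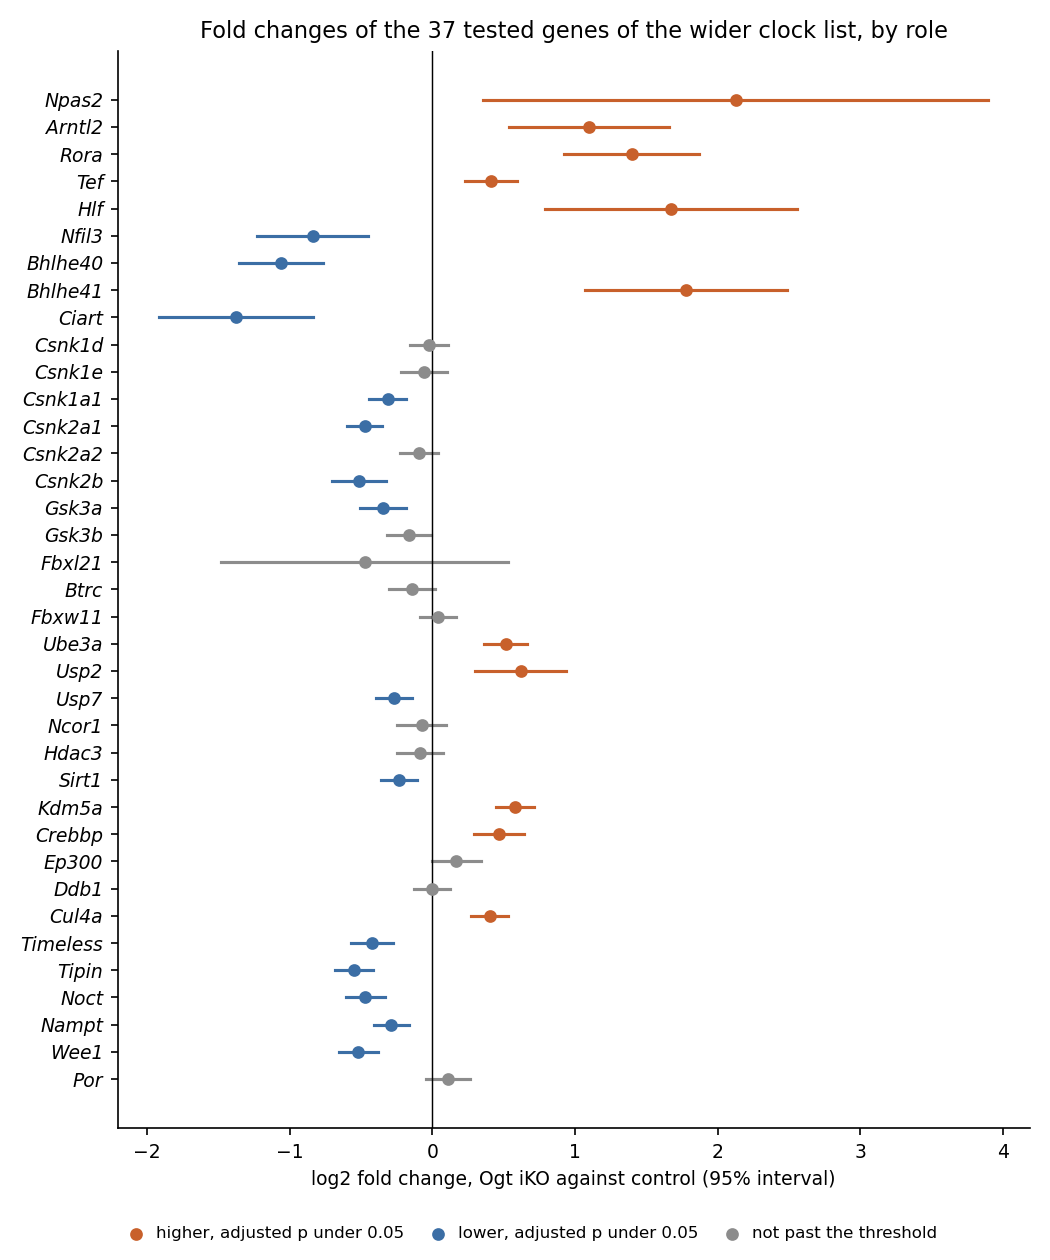
Log2 fold change, Ogt iKO against control, with 95% intervals for the 37 tested genes of the wider clock list, ordered by role from activator partners at the top to output genes at the bottom. The transcription factors in the upper rows spread from -1.38 for Ciart to 2.13 for Npas2, while kinases, ligases and co-regulators below Ciart keep within 0.62 of 0 on the log2 scale.

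Enzymes that set the stability of clock proteins came next. Of 8 kinase genes, 4 fell and the other 4 did not pass the threshold (32.0% of all genes fell). Csnk1d and Csnk1e, which encode casein kinases that phosphorylate PER, did not pass the threshold, with log2 fold changes of -0.026 (95% interval -0.16 to 0.11) and -0.060 (-0.22 to 0.10). Another casein kinase 1 gene of the list, Csnk1a1, was called lower (log2 fold change -0.31, edgeR adjusted p 0.00137). Csnk2a1 and Csnk2b, subunits of casein kinase 2, had log2 fold changes of -0.47 and -0.51. Csnk2a2, also a subunit gene, did not pass the threshold (-0.095, edgeR adjusted p 0.180). Gsk3a was called lower (-0.35, edgeR adjusted p 0.00243), and Gsk3b, which encodes a kinase of several clock proteins, had -0.16 (edgeR adjusted p 0.0575). Gsk3b did pass the threshold without Ogt iKO replicate 1 (-0.22, edgeR adjusted p 0.0284), with RLE size factors (edgeR adjusted p 0.0452) and with a robust spread (edgeR adjusted p 0.0487). Of 6 ubiquitin ligase and protease genes, 2 rose and 1 fell (33.2% and 32.0% among all genes). Usp2, a deubiquitinase gene that cycles in many tissues, rose by 0.62 and Ube3a, a ligase gene partly under the antisense transcript Snhg14, by 0.51.

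Co-regulators, fork proteins and outputs completed the list. Of 8 chromatin and co-regulator genes, 3 rose (33.2% of all genes did), namely Kdm5a (0.58), Crebbp (0.47) and Cul4a (0.40), and Sirt1, an NAD-dependent deacetylase gene, fell by 0.24. Timeless and Tipin, whose products mainly guard replication forks in mammals, had log2 fold changes of -0.43 and -0.55. Of 4 output genes, 3 fell (32.0% of all genes did): Wee1, the mitotic kinase gene driven through E-boxes, had a log2 fold change of -0.52, Noct (nocturnin) of -0.47 and Nampt, which encodes the rate-limiting enzyme of NAD salvage, of -0.29. All of these calls had edgeR adjusted p values from 5.93e-05 to 0.00542. The falls of Sirt1 and Nampt did not pass the threshold with libraries scaled by totals (edgeR adjusted p 0.303 and 0.0797).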

How the data were processed

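For each of 4 libraries the authors deposited a table of raw counts per gene symbol. STAR, Picard and the genome build mm10 are named in the submitters' processing notes; versions, annotation and the strand counted are not given in the sources used here. The labels' protocols name a stranded mRNA kit. Groups came from sample titles. Tests used edgeR 4.0.16 (R 4.3.3) on these counts (filterByExpr, TMM, quasi-likelihood test, all 4 libraries, no covariate), with Benjamini-Hochberg adjustment over the 14525 genes tested. SEs and 95% intervals were derived from each gene's fold change and F statistic. Alternatives were RLE, upper-quartile or no size factors, DESeq2 1.42.0, other filters (none, or 2 libraries with a CPM of 1 or more), a robust spread, a replicate block, glmTreat against a fold of 1.2, and leaving out each library. Exon lengths and overlaps came from GENCODE and positions and promoter windows from RefSeq, both on GRCm38, the assembly behind mm10. The members and lists were chosen with earlier results of these data known. Named were all members, Ogt, listed pathway genes called with a log2 fold change of at least 0.5 in size, and others a role needed. Thra and Sphk2 were added for their overlap, after seeing the data. Of 40 genes planned for the pathway list, 2 are not reported here, for a reason unrelated to their values, and stay out of its counts.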

Additional observations from a re-analysis of the deposited data

How the results depend on the processing

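Clock, Per2 and Cry1 kept their call and direction in all 13 alternatives. Against a fold of 1.2 (glmTreat), 2 clock genes were higher and 2 lower, with 47.9% of all genes called, and 9 of the wider list were lower in place of 14; Arntl (log2 fold change 0.36, edgeR adjusted p 0.0968), Cry2 (-0.23, 0.509) and Nr1d2 (0.32, 0.217) lost their call. DESeq2 also called 2 higher and 2 lower, with 47.6% of all genes called, and dropped Arntl (0.33), Cry2 (-0.26) and Nr1d2 (0.30). With no filter Nr1d2 was at 0.31 (edgeR adjusted p 0.0568). Scaling by totals gave 6116 genes higher and 3282 lower in place of 4827 and 4651, a median of 0.21 for the 10 clock genes, and 0.26 for Per1, -0.065 for Cry2, 0.15 for Dbp, 0.14 for Csnk1d, 0.11 for Csnk1e and 0.0054 for Gsk3b. Upper quartiles gave -0.19 for Cry2, 0.023 for Dbp and 0.016 for Csnk1d. Leaving out a library gave -0.28 to -0.21 for Cry2, -1.11 to -0.58 for Nr1d1, 0.20 to 0.41 for Nr1d2, -0.16 to 0.12 for Dbp and a median from -0.027 to 0.092 for the 10, with 3 to 4 higher and 1 to 3 lower, Cry1 being the 1 left without control replicate 2. The Arntl2 to Arntl difference ran from 0.37 without control replicate 2 to 1.24 without control replicate 1, and Per3 to Per1 from -0.55 to -0.19. The replicate block gave 4922 higher and 4719 lower genes and the same 7 clock calls. The labels do not say whether a shared replicate number marks a shared culture. The deviations of same-numbered libraries correlated at 0.0859 across genes, which with 2 libraries per group cannot settle it. Per length of the longest transcript, the control log2 ratios were -3.62 for Per2 to Per1, -1.82 for Per3 to Per1 and 1.03 for Cry1 to Cry2. In the 250 bases before the start alone, the E-box was in 6.02% of windows, the E-prime box in 3.85%, the D-box in 0.931%, the ROR element in 5.38% and the cyclic AMP element in 1.55%, and Arntl held no ROR element. The cause of these shifts was not tested. Depth limits Dbp, Npas2, Hlf and Rorb, with few counts in every library.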
